A study of Rattus norvegicus with 9 samples.

Results

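Cxcr4, Ccl2 and Cx3cl1 are 3 genes of the chemokine system, a receptor and a pair of ligands, and they were followed in cultured rat sympathetic neurons with and without bone morphogenetic protein 7 (BMP-7). Their members here are all probe sets of the array annotated to 1 of the 3 genes alone, which gave 8 of the 8740 probe sets tested: 3 for Cxcr4, 2 for Ccl2 and 3 for Cx3cl1. The genes were chosen with earlier results of the same arrays known, in which Cxcr4 was higher and Ccl2 lower after 24 hr of BMP-7, so their levels and differences are given as a description, with standard errors and without a test. What led to the choice of Cx3cl1 is not given in the sources used here.

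The RNA came from superior cervical ganglia of Holtzman rat pups at embryonic day 21. In all 9 samples the dissociated cells grew in serum-free medium with nerve growth factor at 100 ng/ml and were given Ara-C for 48 hr, which depletes dividing non-neuronal cells. On culture day 5 they received medium alone (control), BMP-7 at 50 ng/ml for 6 hr (BMP6h) or BMP-7 at 50 ng/ml for 24 hr (BMP24h), with 3 arrays for each condition from 3 independent dissections and each RNA sample pooled from several cultures. Per the paper, RNA of all 3 conditions was isolated at 1 time, on culture day 6. Replicate 1 was run in batch 1 (10 µg of cRNA an array) and the other 2 replicates in batch 2 (5 µg). Values are log2 expression values, so that 1 unit is a doubling, and the number of arrays limits their precision.

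Chemokines are small secreted proteins that bind receptors coupled to inhibitory G proteins, and they are best known for steering the migration of leukocytes. In the nervous system they also act between neurons, glia and macrophages. Cxcr4 is the receptor of the ligand Cxcl12 and takes part in the migration of neural crest cells that form sympathetic ganglia. Ccl2 attracts monocytes through the receptor Ccr2. Cx3cl1, or fractalkine, is made as a membrane-bound protein that the proteases Adam10 and Adam17 can shed, and its receptor Cx3cr1 is found on macrophages and microglia.

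The libraries carried neuronal RNA in all 3 conditions. Over 13 neuron markers the summed linear signal ran from 55300 to 57900 on control, 54800 to 58200 on BMP6h and 52900 to 58000 on BMP24h arrays. The array BMP6h replicate 2 stood apart, where 9.99% of probe sets differed by over 1 log2 unit from the mean of its 2 fellow replicates. The share was 4.21% on BMP6h replicate 3 and 3.84% on control replicate 3. It was 0.57% to 1.09% on the other batch 2 arrays and 0.02% to 0.11% on those of batch 1. The batch effect had been removed from these values, which can bring batch 1 arrays nearer to their fellows. The shares therefore do not compare array quality between the batches. Because BMP6h replicate 2 stood apart, log2 differences from control at 6 hr are also given without it for the 3 genes. The same holds for other chemokine system genes named with such a difference. Other values from BMP6h arrays include it unless stated. In RNA from whole cultures, fewer cells of a type and less RNA per cell cannot be told apart.

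Cxcr4 was higher after BMP-7 at both times, with the higher values at 24 hr. At the probe set U90610_at the control arrays had log2 levels of 9.28, 9.32 and 9.07, the BMP6h arrays 9.62, 9.85 and 9.77, and the BMP24h arrays 10.79, 10.43 and 10.94 (replicates 1, 2 and 3). All BMP6h values lay above all control values and all BMP24h values above all BMP6h values. The means were 9.22 ± 0.13 in control, 9.74 ± 0.12 in BMP6h and 10.72 ± 0.26 in BMP24h cultures (SD, n = 3). The log2 difference from control was 0.52 at 6 hr (standard error 0.16, 1.44-fold) and 1.49 at 24 hr (standard error 0.16, 2.82-fold). The difference between 24 hr and 6 hr was 0.97 (standard error 0.16, 1.96-fold).

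The probe set U90610_g_at, made from the same GenBank sequence, had log2 levels of 8.55, 8.40 and 8.42 in control, 8.81, 9.14 and 8.95 in BMP6h and 10.01, 9.65 and 10.17 in BMP24h cultures. Its groups kept the same order without overlap, and its log2 differences were 0.51 at 6 hr and 1.49 at 24 hr (each with a standard error of 0.17). The probe set rc_AA945737_at, made from an expressed sequence tag, had 7.01, 6.95 and 7.28 in control, 7.47, 8.26 and 7.77 in BMP6h and 9.33, 8.26 and 9.11 in BMP24h cultures. Here too the groups were ordered without overlap, but the lowest BMP24h array exceeded the highest BMP6h array by a log2 value of 0.00048 only. Its log2 differences were 0.75 at 6 hr and 1.82 at 24 hr (each with a standard error of 0.31), and 1.07 between the times.

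**Figure D1:**
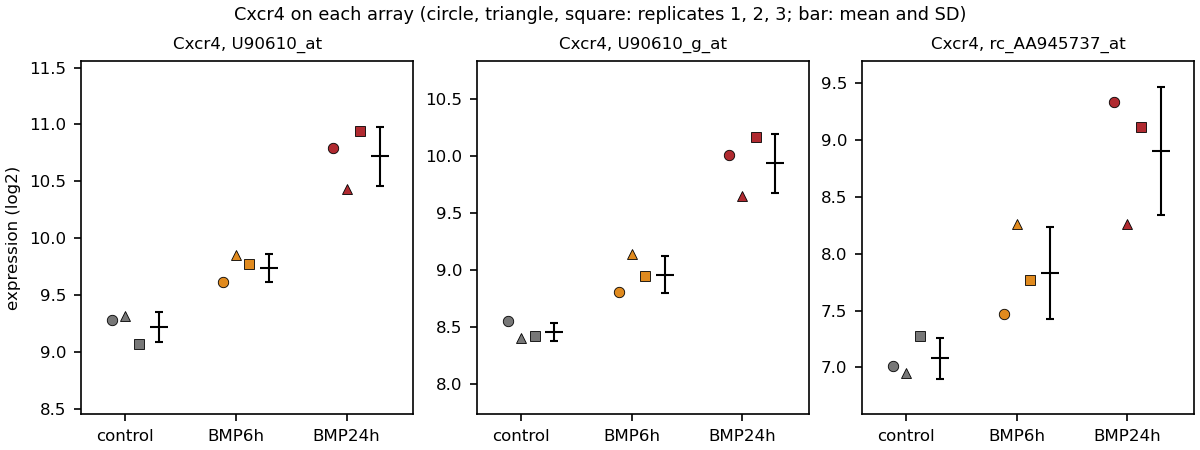
Expression of Cxcr4 (log2, y axis) at each of its 3 probe sets on control, BMP6h and BMP24h arrays (x axis), with circles, triangles and squares for replicates 1, 2 and 3 and bars for the mean and SD (n = 3); all panels span the same number of log2 units. In each panel the control arrays lie lowest and the BMP24h arrays highest, and at rc_AA945737_at replicate 2 has 8.26 at both times.

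Replicate 2 was the lowest of the BMP24h arrays and the highest of the BMP6h arrays at all 3 Cxcr4 probe sets, so that the step from 6 hr to 24 hr was smallest for that number. At U90610_at this step was 1.17 for replicate 1, 0.58 for replicate 2 and 1.17 for replicate 3, and at rc_AA945737_at it was 1.86, 0.00 and 1.34. These steps pair arrays by number only, and the labels do not say that the number marks a dissection. Without BMP6h replicate 2, the log2 difference at 6 hr was 0.47 for U90610_at, 0.41 for U90610_g_at and 0.52 for rc_AA945737_at, which was 0.75 with it. The sign held in each batch. In batch 1, with 1 array for each condition, U90610_at differed from control by 0.34 at 6 hr and 1.51 at 24 hr, and in batch 2 by 0.61 and 1.49. U90610_g_at had 0.26 at 6 hr in batch 1 and 0.63 in batch 2, and 1.46 and 1.50 at 24 hr. For rc_AA945737_at the values at 6 hr were 0.46 and 0.90, and those at 24 hr were 2.32 and 1.57.

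Ccl2 was lower after 24 hr of BMP-7 at both of its probe sets, and at 6 hr 1 of them overlapped with control. At X17053cds_s_at the control arrays had log2 levels of 9.47, 9.67 and 9.77, the BMP6h arrays 9.40, 9.25 and 9.43, and the BMP24h arrays 9.16, 8.75 and 9.18. The 3 groups did not overlap and were ordered from control down to BMP24h, although control and BMP6h were only 0.04 apart at their nearest arrays. The means were 9.64 ± 0.15, 9.36 ± 0.09 and 9.03 ± 0.24 (SD, n = 3). The log2 difference from control was -0.28 at 6 hr and -0.61 at 24 hr (each with a standard error of 0.16), the latter 1.52-fold lower, and the difference between the times was -0.33.

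X17053mRNA_s_at comes from the same GenBank sequence as the other Ccl2 probe set. It had 10.58, 10.78 and 10.99 in control, 10.66, 10.61 and 10.59 in BMP6h and 10.54, 10.11 and 10.47 in BMP24h cultures. Control and BMP6h arrays overlapped here, and the BMP24h arrays lay below both, by 0.04 and 0.05 at the nearest arrays. The log2 differences were -0.16 at 6 hr and -0.41 at 24 hr (each with a standard error of 0.16, 1.33-fold lower at 24 hr). The difference at 24 hr was larger in size in batch 2. In batch 1 it was -0.04 for X17053mRNA_s_at and -0.31 for X17053cds_s_at, against -0.59 and -0.76 in batch 2, and at 6 hr X17053mRNA_s_at had 0.08 in batch 1 and -0.29 in batch 2. Without BMP6h replicate 2 the values at 6 hr were -0.22 for X17053cds_s_at and -0.16 for X17053mRNA_s_at. BMP24h replicate 2 was the lowest array at both probe sets, as it was the lowest of its condition for Cxcr4, and without it the difference at 24 hr was -0.46 for X17053cds_s_at and -0.27 for X17053mRNA_s_at.

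Cx3cl1 did not separate the conditions. At rc_AA800602_s_at, its brightest probe set, the log2 levels were 8.30, 8.39 and 8.25 in control, 8.23, 8.09 and 8.27 in BMP6h and 8.14, 8.37 and 7.98 in BMP24h cultures. The groups overlapped, and the log2 differences from control were -0.12 at 6 hr and -0.15 at 24 hr (each with a standard error of 0.14). At AF030358_at the levels were 7.17, 7.55 and 7.35 in control, 7.64, 7.32 and 7.48 in BMP6h and 7.32, 7.15 and 7.40 in BMP24h cultures. The groups overlapped again, with differences of 0.12 at 6 hr and -0.06 at 24 hr (each with a standard error of 0.15). Without BMP6h replicate 2 the values at 6 hr were -0.06 for rc_AA800602_s_at and 0.21 for AF030358_at.

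AF030358_g_at, from the same GenBank sequence, spread most among the replicates. It had 5.83, 6.68 and 6.69 in control, 6.96, 5.83 and 6.53 in BMP6h and 6.04, 5.59 and 6.35 in BMP24h cultures. Its log2 differences were 0.04 at 6 hr and -0.41 at 24 hr, with a standard error of 0.37 for each, and the groups overlapped. In batch 1 it was higher than control by 1.13 at 6 hr, whereas in batch 2 the difference was -0.51, and without BMP6h replicate 2 it was 0.37. It was the 1 member probe set whose mean over the 9 arrays was below the median of all probe sets.

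**Figure D2:**
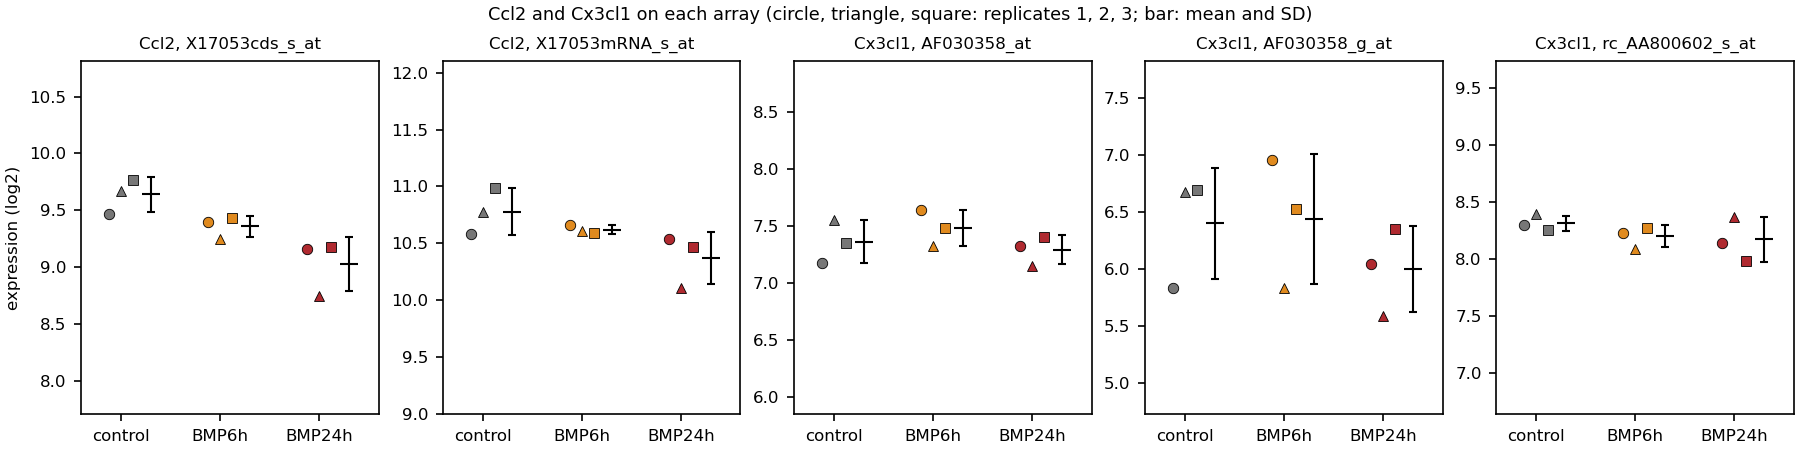
Expression of Ccl2 and Cx3cl1 (log2, y axis) at each probe set on control, BMP6h and BMP24h arrays (x axis), with circles, triangles and squares for replicates 1, 2 and 3 and bars for the mean and SD (n = 3); all panels span the same number of log2 units. Both Ccl2 probe sets are lowest on the BMP24h arrays, and the conditions overlap at all 3 Cx3cl1 probe sets.

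The probe sets of a gene shared their pattern over the 9 arrays for Cxcr4 and Ccl2 and only in part for Cx3cl1. Pearson's r between probe sets of Cxcr4 was 0.95 to 0.99, and that between the Ccl2 probe sets was 0.95. For Cx3cl1 it was 0.90 between AF030358_at and AF030358_g_at, but rc_AA800602_s_at had r = -0.06 with the former and 0.04 with the latter. These values describe the same 9 RNA samples, and probe sets made from 1 GenBank sequence can share probes.

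The count of members whose arrays did not overlap between conditions is set beside that of all 8740 probe sets, and since the members were chosen on these contrasts nothing is read from it. At 6 hr the arrays lay wholly above control for 3 member probe sets, all of Cxcr4, and for 3.65% of all probe sets, and wholly below control for 1, of Ccl2, and for 6.96% of all. At 24 hr they lay above control for the 3 of Cxcr4 and 5.61% of all, and below for the 2 of Ccl2 and 7.07% of all. Between 24 hr and 6 hr the 3 of Cxcr4 were above (5.63% of all) and the 2 of Ccl2 below (4.04% of all). An order from control to BMP6h to BMP24h without any overlap was found upward for the 3 Cxcr4 probe sets and 0.286% of all, and downward for X17053cds_s_at of Ccl2 and 0.195% of all. The comparisons at 6 hr and 24 hr share the control arrays.

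**Figure D3:**
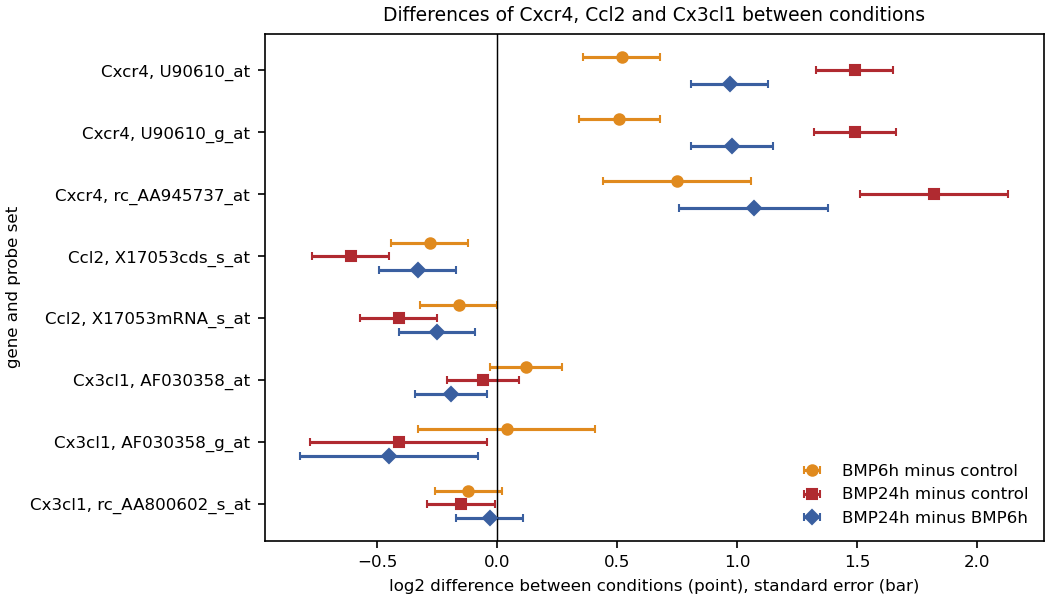
Log2 difference between conditions (x axis; points) with its standard error (bars) for the 8 probe sets of Cxcr4, Ccl2 and Cx3cl1 (y axis). The 3 Cxcr4 probe sets lie between 1.49 and 1.82 at 24 hr against control, the Ccl2 probe sets at -0.61 and -0.41, and those of Cx3cl1 between -0.41 and -0.06.

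The ligand of Cxcr4, Cxcl12, was not analysed here. The partners of the 3 genes that had a probe set gave no difference past the test, which was an adjusted p under 0.05 in limma over all 8740 probe sets. Ackr3, an atypical receptor that also binds Cxcl12, had a log2 difference from control of -0.07 at 6 hr and -0.02 at 24 hr (each with a standard error of 0.28). Ccr2 had -0.30 and -0.15 (standard error 0.23), and Cx3cr1 had 0.16 and 0.00 (standard error 0.13). Their adjusted p-values were 0.887 or more. Adam10 had -0.03 at 6 hr and 0.46 at 24 hr (standard error 0.31, adjusted p = 1.00), where its level was 7.11 on BMP24h replicate 3 and 6.06 and 6.11 on the other 2 arrays. Adam17 had 0.34 at 6 hr and -0.04 at 24 hr (standard error 0.28), with a level of 7.61 on BMP6h replicate 2 and 6.76 and 6.48 on the other BMP6h arrays. Without that array the values at 6 hr were -0.02 for Adam17, 0.21 for Adam10, 0.22 for Ackr3, -0.06 for Ccr2 and 0.09 for Cx3cr1. Control means were 5.60 for Ackr3, 4.47 for Ccr2, 6.14 for Cx3cr1, 5.97 for Adam10 and 6.61 for Adam17. Each lay below the median of all probe sets (6.80), and at such dim probe sets a change can be missed.

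The 14 other chemokine ligands on the array had small log2 differences from control, which does not show that they were unchanged. At 24 hr 6 had higher and 8 lower values, from -0.34 (Cxcl6, standard error 0.19) to 0.18 (Ccl3, standard error 0.16), with a median log2 difference of -0.03. At 6 hr 5 were higher and 9 lower, from -0.36 (Ccl5) to 0.19 (Ccl3). The 10 other chemokine receptors had a median of 0.03 at 6 hr and -0.05 at 24 hr, with 5 higher and 5 lower at 6 hr and 4 higher and 6 lower at 24 hr. Their lowest value was that of Ackr2, a scavenging receptor, with -0.80 at 6 hr and -0.52 at 24 hr, against a standard error of 0.38. The highest was 0.73 for Cxcr2 at 6 hr (standard error 0.55) and 0.21 for Ccr3 at 24 hr (standard error 0.31). Without BMP6h replicate 2, Cxcr2 had -0.03 at 6 hr, Ackr2 -0.49, Ccl5 -0.07 and Ccl3 0.13. None of these 24 ligands and receptors passed the adjusted test or the thresholds of the Methods (a fold change of 1.2 or more at an unadjusted p below 0.05). Over all 4736 genes at their brightest probe set, the median log2 difference was -0.03 at 6 hr and 0.01 at 24 hr.

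Of 34 genes of chemokine receptor signaling (G protein subunits, receptor kinases, arrestins, phospholipases, kinases and small GTPases), 15 had higher and 19 lower values at 24 hr, with a median of -0.08, and none passed the adjusted test. At the thresholds of the Methods 1 was higher, Plcb3, and 2 were lower, Plcb1 and Rgs4, where 1.77% of all genes were higher and 2.05% lower. Plcb1 and Plcb3 are phospholipases C that act below G proteins, and Rgs4 speeds the inactivation of G protein alpha subunits.

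Plcb1 at L14323_at had log2 levels of 8.73, 8.70 and 8.70 in control, 8.70, 8.76 and 8.68 in BMP6h and 7.75, 7.53 and 7.98 in BMP24h cultures. The values at 24 hr lay below those of both other conditions without overlap, by a log2 difference of -0.96 from control (standard error 0.14, adjusted p = 0.0604). Over 20 alternative settings that adjusted p ran from 0.000189 to 1.00 and was under 0.05 in 4. These were array weights, an intensity trend, the removal of dimmer probe sets and no batch term. With no batch term the standard errors can be too small, since the batch effect had already been removed from the values. The dimmer Plcb1 probe sets had -0.36 (L14322exon_at) and -0.53 (M20636_s_at). Plcb3 at M99567_at had 7.31, 7.48 and 7.65 in control, 7.81, 7.61 and 7.85 in BMP6h and 8.57, 8.70 and 8.08 in BMP24h cultures. Its BMP24h arrays lay above all others, with a log2 difference from control of 0.97 (standard error 0.19, adjusted p = 0.215; 0.000617 to 1.00 over the alternatives, under 0.05 in 2) and 0.91 at M99567_g_at.

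Rgs4 had 10.17, 9.87 and 10.49 in control, 10.20, 9.70 and 10.25 in BMP6h and 8.65, 8.37 and 9.38 in BMP24h cultures. The arrays at 24 hr lay below all others, with a log2 difference from control of -1.38 (standard error 0.30, adjusted p = 0.294). Over the alternatives the adjusted p ran from 0.00197 to 1.00 and was under 0.05 in 2, 1 of them the replicate block (adjusted p = 0.035). Between 24 hr and 6 hr Pak1, a kinase activated by small GTPases, was also lower at the thresholds of the Methods, with -0.50 (standard error 0.17, adjusted p = 0.939).

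**Figure D4:**
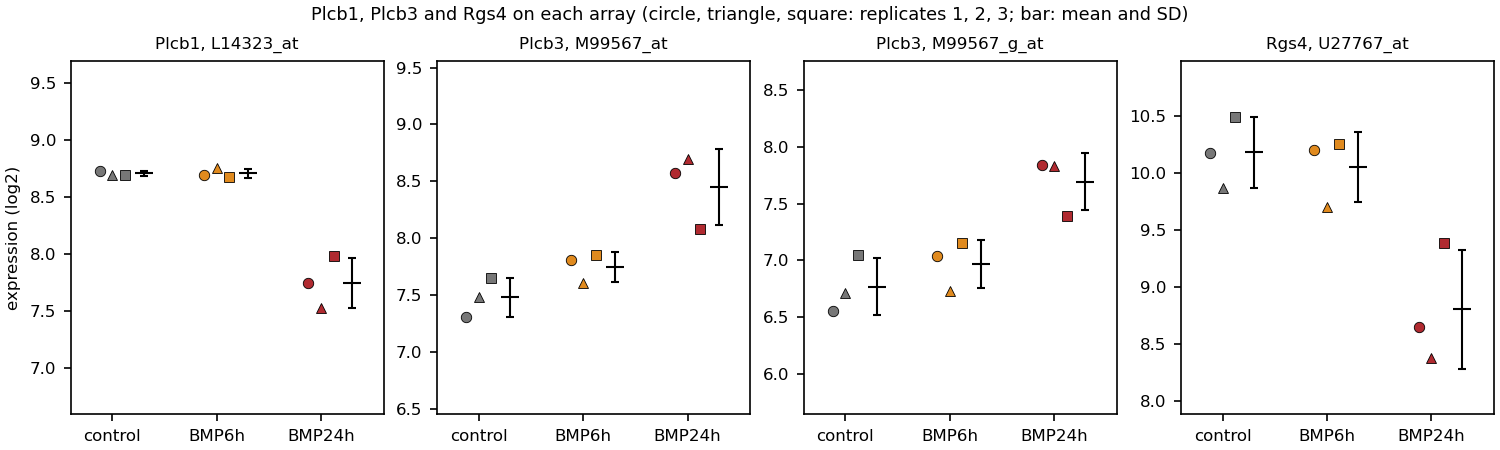
Log2 expression (y axis) of Plcb1, of Plcb3 at both of its probe sets and of Rgs4 on control, BMP6h and BMP24h arrays (x axis), with circles, triangles and squares for replicates 1, 2 and 3 and bars for the mean and SD (n = 3); all panels span the same number of log2 units. The BMP24h arrays lie below the others for Plcb1 and Rgs4 and above them for Plcb3.

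Of 19 genes of chemokine processing and presentation (proteases, syndecans and matrix proteoglycans), 9 had higher and 10 lower values at 24 hr, and the median was -0.04. At the thresholds of the Methods 3 were lower at 24 hr, as were 2.05% of all genes. Mmp3, a matrix metalloproteinase that cleaves chemokines, had 9.68, 9.68 and 9.77 in control, 8.98, 8.20 and 9.58 in BMP6h and 8.65, 8.26 and 9.13 in BMP24h cultures. Both BMP-7 groups lay below control without overlap, by -0.79 at 6 hr and -1.03 at 24 hr (each with a standard error of 0.36, adjusted p = 0.887 and 1.00). Without BMP6h replicate 2 the value of Mmp3 at 6 hr was -0.40. Sdc1, a heparan sulfate proteoglycan of the cell surface, had -0.36 at S61865_s_at (standard error 0.14) and -0.35 at X60651mRNA_s_at at 24 hr. Dcn, a matrix proteoglycan, had -0.39 at 6 hr and -0.73 at 24 hr at its brightest probe set (each with a standard error of 0.17, adjusted p = 0.887 and 0.323), and its other probe sets ran from -0.82 to -0.01 at 24 hr. Without BMP6h replicate 2 its value at 6 hr was -0.26.

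Of 28 genes of inflammatory cytokines, their receptors and the NF-kappaB pathway, a list that holds known inducers of Ccl2, 8 had higher and 20 lower values at 24 hr, with a median of -0.07. The values ran from -0.49 (Ifng, standard error 0.24) to 0.31 (Irf1, standard error 0.25), and none passed either threshold. At 6 hr 12 were higher and 16 lower, with the lowest value for Il6, -0.57 (standard error 0.28), which was -0.29 without BMP6h replicate 2. Over all 4736 genes at their brightest probe set, 2474 had higher and 2262 lower values at 24 hr, and 2022 and 2714 at 6 hr. The part of the listed genes in the lower Ccl2 values was not tested.

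Over the 105 genes of the 5 lists other than the 3 members, limma's adjusted test called none in any of the 3 comparisons, and neither did the ordinary two-way analysis of variance. Before adjustment, p was below 0.05 for 1 of them at 6 hr, 6 at 24 hr and 5 between the times, and for 151, 297 and 259 of all 8740 probe sets. Over all genes the adjusted test called 0.0422% at 6 hr, 0.211% at 24 hr and 0.0% between the times. At the thresholds of the Methods 0 of the 105 were higher at 6 hr and 1 was lower, against 0.908% and 0.887% of all genes. At 24 hr 1 was higher and 5 were lower, against 1.77% and 2.05% of all genes. Between 24 hr and 6 hr 1 was higher and 4 were lower, against 1.58% and 1.63%. These small list counts depended on single arrays. Without BMP6h replicate 3 there were 4 higher and 4 lower at 6 hr and 9 lower between the times, without BMP24h replicate 2 there were 3 higher at 24 hr, and without control replicate 3 there were 3 lower at 24 hr.

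**Figure D5:**
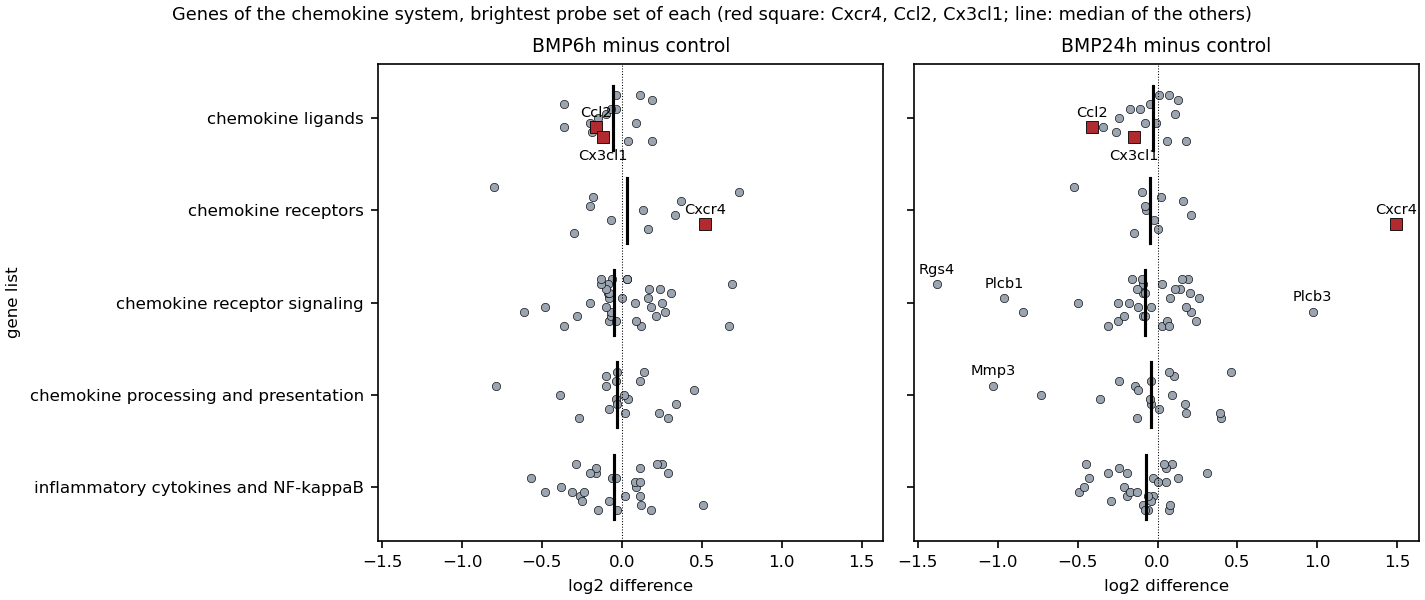
Log2 difference from control (x axis) at 6 hr and 24 hr for each gene of 5 lists of the chemokine system (y axis), at its brightest probe set, with red squares for Cxcr4, Ccl2 and Cx3cl1 and a line at the median of the other genes. The medians lie between -0.08 and 0.03. Cxcr4, which was chosen with its higher value at 24 hr known, lies at 1.49 at that time, and the other chemokine receptors reach at most 0.21.

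Markers of other cells were read in the same samples, since Ccl2 and Cx3cr1 are also made by non-neuronal cells. The summed linear signal of 20 fibroblast and matrix markers ran from 25600 to 27700 on control, 25400 to 26600 on BMP6h and 24400 to 25800 on BMP24h arrays, and that of 11 macrophage and blood cell markers from 1560 to 1850, 1660 to 2230 and 1540 to 1990. For 9 endothelial and mural markers it ran from 1150 to 1360, 1100 to 1300 and 1220 to 1230, and for 14 satellite glia and Schwann cell markers from 10500 to 12300, 10700 to 12100 and 9510 to 11100. Such a sum is set mostly by its brightest markers and can miss a change in the dimmer ones. The mean log2 level counts each marker alike. From control to BMP24h it went from 7.92 to 7.88 for glial, 6.77 to 6.54 for endothelial and 6.6 to 6.64 for macrophage and blood cell markers. At 24 hr 0 of these markers of other cells passed limma's adjusted test, and 6 had an unadjusted p below 0.05, as had 297 of all 8740 probe sets. At the thresholds of the Methods 4 of the 20 fibroblast markers were lower (Igfbp3, Dcn, Lum and Mgp) and 0 higher, against 2.05% lower and 1.77% higher of all genes. Over that list 9 had higher and 11 lower values, with a median of -0.07, and the mean log2 level went from 9.22 in control to 9.03 in BMP24h cultures. At the same thresholds 1 gene of the glial list, Vim (-0.38), and 1 of the endothelial list, Kdr (-1.39, with a control SD of 1.15), were lower. Of the macrophage list 0 were higher or lower. Vim is not specific to glia, and over the glial list 6 had higher and 8 lower values, with a median of -0.03. The part of these cells in the lower Ccl2 values was not tested. Values made by RMA are never 0. In control cultures the mean was above the median of all probe sets (6.80) for 18 of the 20 fibroblast, 11 of the 14 glial, 5 of the 9 endothelial and 4 of the 11 macrophage and blood cell markers. Among defining markers the control means were 10.3 for Col1a1, 9.32 for Col1a2, 9.15 for Col3a1 and 6.56 for Pdgfra of fibroblasts. They were 4.57 for Sox10 and 7.61 for S100b of glia, and 5.63 for Pecam1 and 5.79 for Kdr of endothelium. Those of macrophages and blood cells were 4.45 for Itgam, 6.09 for Csf1r, 6.14 for Cx3cr1, 6.98 for Ptprc and 8.5 for Aif1.

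The genes whose pattern over the 9 arrays was most like that of a member were sought among 7003 to 7004 probe sets that name 1 other gene, with Pearson's r as the measure. The values are a description, since all come from the same 9 RNA samples and the highest of many are given. For Cxcr4 at U90610_at these were Hpcal1, a neuronal calcium sensor, Olfm1, a secreted neuronal glycoprotein, Qpct, an enzyme that modifies the first residue of peptides, and Gch1, which makes the cofactor of tyrosine hydroxylase (r = 0.96 for each), followed by the Notch ligand Jag1 (r = 0.95). Their log2 differences were 0.29 to 0.73 at 6 hr and 0.82 to 1.65 at 24 hr, with Hpcal1 at 1.65 and Jag1 at 1.50. Each of the 5 had a higher value at 24 hr than at 6 hr. Their choice by r to Cxcr4 over these arrays makes that order likely, so nothing is read from it.

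For Ccl2 at X17053cds_s_at the nearest were Wipf3, an actin regulator (r = 0.98), the calcium-binding protein Calb1 (r = 0.96), Pkia, an inhibitor of protein kinase A (r = 0.95), Cdo1, which oxidizes cysteine (r = 0.95), and Cdh2, N-cadherin (r = 0.94). All 5 were lower at both times, which their choice by r to Ccl2 likewise makes likely. At 24 hr Cdo1 had -1.17, Cdh2 -0.86, Calb1 -0.80, Wipf3 -0.38 and Pkia -0.27. For Cx3cl1 at rc_AA800602_s_at the nearest genes, Arfgap2, Ppard, Sncb, Myh1 and Ppp1r13l, had r from 0.91 to 0.92 and differences at 24 hr from -0.13 to -0.07, so that a high r went with values that hardly differed between the conditions.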

How the data were processed

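Total RNA of 9 samples, each pooled from several cultures, was hybridized to Affymetrix Rat Genome U34A arrays. The deposited unit is log2 expression: per the Methods, the authors ran RMA on the CEL files in Partek and then removed the batch effect, after which no probe set had batch means more than 6.67e-05 apart. No read depth exists for an array. Of 8799 probe sets, 59 controls were left out. The platform annotation names 1 gene for 7006 of the other 8740, several for 308 and none for 1426. The 3 conditions were fitted in limma 3.58.1 (R 4.3.3) with terms for condition and batch, which left 5 residual degrees of freedom. Adjustment was by Benjamini-Hochberg over all 8740, and an adjusted p under 0.05 counted as past the test. The fit was tested on simulated data for BMP24h against control. The adjusted test called 47 of 100 probe sets with a simulated log2 change of 1 and 89 of 100 with a change of 2. Of 8540 simulated without a change it called 4. A gene that did not pass the adjusted test can thus still have changed.

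The members, 5 lists of the chemokine system and 5 marker lists were chosen with earlier results of these arrays known. Each member probe set was kept apart, and counts over lists used the brightest probe set of a gene. Named were all members, the 5 genes with the highest r to the leading probe set of each member, list genes past the adjusted test or the thresholds of the Methods, and known partners. Genes at the ends of a list's range and defining markers were named after their values were seen. Fold changes and p-values printed in the study's tables were not used. No probe sequences were used here, and array values have no genome build.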

Additional observations from a re-analysis of the deposited data

How the results depend on the processing

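The differences of Cxcr4 in all comparisons and those of Ccl2 at 24 hr kept their sign in every alternative, and that of Ccl2 X17053mRNA_s_at at 6 hr did not. With single arrays left out, Cxcr4 at 24 hr ran from 1.38 to 1.65 at U90610_at and from 1.50 to 2.17 at rc_AA945737_at, and Ccl2 from -0.73 to -0.46 at X17053cds_s_at and from -0.56 to -0.27 at X17053mRNA_s_at, the smallest sizes of Ccl2 being those without BMP24h replicate 2.

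Values that moved by more than the residual spread of a probe set came from batch 1 alone, batch 2 alone or array weights. Batch 1 alone, with 1 array for each condition, gave at 6 hr 0.26 for Cxcr4 U90610_g_at, -0.08 and 0.08 for Ccl2 and 0.47 and 1.13 for Cx3cl1 AF030358_at and AF030358_g_at. At 24 hr it gave 2.32 for Cxcr4 rc_AA945737_at, -0.31 and -0.04 for Ccl2 and 0.15 and 0.21 for Cx3cl1, and between the times 1.86 and 1.2 for Cxcr4 rc_AA945737_at and U90610_g_at. Batch 2 alone gave -0.51 and array weights 0.58 for AF030358_g_at at 6 hr. Array weights, which ran from 0.093 (BMP6h replicate 2) to 5.764 (BMP24h replicate 1), gave -0.41 and -0.16 for Ccl2 at 24 hr and 1.63 for rc_AA945737_at between the times. The cause was not tested.

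Of the 105 list genes, the adjusted test called none in limma. Array weights called 1 higher at 6 hr, 3 higher and 5 lower at 24 hr, and 1 higher and 4 lower between the times. Removal of dimmer probe sets called 1 higher and 1 lower at 24 hr and 1 lower between the times. An intensity trend and no batch term each called 1 lower in both of those comparisons. Leaving out single arrays called none. Each repeat of the experiment used 1 dissection for the 3 conditions, but the labels do not say that the replicate number marks it. In batch 2 the differences between replicates 2 and 3 had r = 0.05 for control with BMP6h, 0.02 for control with BMP24h and 0.40 for BMP6h with BMP24h, and replicate 1 could not be checked, since batch removal left equal batch means. With the replicate block 1 gene was lower at 24 hr.

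At the thresholds of the Methods the list counts at 6 hr, 0 higher and 1 lower, were 2 and 6 with the replicate block, 3 and 3 with array weights, 1 and 2 with no batch term and with dimmer probe sets removed, and 0 and 2 with an intensity trend. The lower count was 0 in batch 2 alone, with median centring, with the compared conditions alone and in the ordinary two-way analysis. Array weights gave 4 higher and 12 lower at 24 hr and 3 higher and 12 lower between the times, where batch 2 alone gave 2 lower. With single arrays left out, the counts ran from 0 to 4 higher and 0 to 4 lower at 6 hr (both 4 without BMP6h replicate 3), from 1 to 3 higher and 3 to 7 lower at 24 hr, and from 1 to 2 higher and 2 to 9 lower between the times.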
